A study of Rattus norvegicus with 10 samples.

Results

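Expression of 58 genes for serotonin, acetylcholine, adrenergic, opioid, histamine, cannabinoid, adenosine and peptide receptors was compared between 5 rat brain regions. The genes were taken by their symbols, over probe sets annotated with exactly 1 gene symbol, and a probe set is the group of probes on the array that together report a transcript. They were covered by 82 of 8740 non-control probe sets, and the probe set of highest mean stands for each gene. The whole array held 4736 genes annotated in this way. Crhr1 and Ntsr1, receptors for corticotropin-releasing hormone and neurotensin that the same choice would have taken, were not analysed here.

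The regions were the prefrontal cortex, the amygdala, the ventral tegmental area and, in the striatum, the caudate putamen and nucleus accumbens. Each had 1 array hybridised with total RNA of cocaine-treated rats and 1 array of saline-treated control rats, so 10 arrays were compared. Cocaine raises the extracellular levels of dopamine, serotonin and noradrenaline by blocking their transporters. The strain, age, dose, duration and number of animals behind an array are unstated in the labels, as is a scan date. The p-values below measure the spread left between these 10 arrays after terms for region and treatment. This spread may be technical in part, and a change with cocaine that differs between regions is counted in it. Each SD of a region (n = 2) is taken over its saline and its cocaine array.

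Most of these receptors lie in the cell membrane and signal through G proteins when a transmitter or peptide binds. The nicotinic subunits and Htr3a instead form ion channels opened by acetylcholine and serotonin. In the basal ganglia, the cannabinoid receptor and the muscarinic, opioid and serotonin receptors are known to tune the release of GABA, glutamate and dopamine around the projection neurons. Receptor transcripts are generally scarce, and in a dissected region fewer cells of a type and less RNA per cell cannot be told apart.

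The values were expression indices of the program dChip, on a linear scale, and the median index of an array lay between 2208 and 2310. An index of 1028, the 20th percentile of all values above 0, served as a floor to which lower values were raised before log2 was taken. A probe set was tested when its mean index lay in the upper 60% of probe sets, at or above 1824. Of the 58 genes, 39 passed and 19 lay near background. A gene could pass through the region in which it was high, so counts over the 39 describe the genes that passed and not the whole set. The array least like the others was that of the prefrontal cortex with cocaine, which had a median correlation of 0.912 with them and 226 exact zeros, against 8 to 120 on the others. The 3 zeros among the 39 tested genes, for Chrm4, Chrnb4 and Htr2a, all fell on that array and were treated as having no value. The 4 markers of striatal projection neurons on the array summed to an index of 59158 and 59467 for the caudate putamen and 38794 and 37948 for the nucleus accumbens (saline, then cocaine), against at most 17369 elsewhere. The 5 dopamine neuron markers summed to 17554 and 23020 in the ventral tegmental area and to at most 12866 elsewhere. Of these 5, 4 were tested and 2 were higher in the ventral tegmental area. The dopamine transporter Slc6a3 did not set that region apart, at 3268 and 4552 there against 3756 on the saline array of the amygdala. Nor did Ret, at 2314 and 2930 there against 3340 on the same amygdala array. The 4 cortical excitatory markers summed to 51581 and 52923 in the prefrontal cortex and to at most 43204 elsewhere. Of these, 2 were tested and 2 were higher in the prefrontal cortex. Nrgn made most of the sum, at 38428 and 39827 there and 31242 and 31573 in the caudate putamen. Slc17a7 did not set the prefrontal cortex apart, at 1349 and 1690 there against 1387 on the saline array of the amygdala.

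Only 2 of the 39 tested genes passed the limma test of a region against the mean of the other 4, at an adjusted p under 0.05. They were Cnr1 and Htr2c, and Htr2c was tested only because of its accumbens values. Cnr1, the cannabinoid receptor that sits on axon terminals and damps transmitter release, was the receptor gene with the widest range over the arrays (probe set X55812complete_seq_at). Its index was 5880 with saline and 6665 with cocaine in the caudate putamen, 2219 and 3112 in the amygdala and 2193 and 2165 in the nucleus accumbens. It was 1820 and 927 in the ventral tegmental area and 2875 and 1541 in the prefrontal cortex. The value of 927 lay under the floor. Both caudate arrays thus lay above all 8 others. The prefrontal arrays overlapped with those of the amygdala, accumbens and ventral tegmental area. The caudate level was 6272 ± 555 (SD, n = 2), 3.11-fold higher than the other 4 regions on average, a log2 difference of 1.64 ± 0.26 (SE, limma adjusted p = 0.0110). In the ventral tegmental area Cnr1 was 2.15-fold below the mean of the other 4, a log2 difference of -1.11 ± 0.26 (SE, limma adjusted p = 0.0302). Since its cocaine value there was raised to the floor, that fold understates the measured indices. The mean of the other 4 also includes the high caudate arrays, and the difference without them was not tested. The tegmental saline value of 1820 lay above the prefrontal cocaine value of 1541.

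The nucleus accumbens did not share the high Cnr1 level of its striatal neighbour. Its log2 difference from the mean of the other 4 regions was -0.27, with a 95% interval from -0.86 to 0.33. Drd1, the dopamine receptor of direct-pathway neurons, had an index of 8237 and 8166 in accumbens tissue and 11001 and 10904 in the caudate putamen. It was higher in both regions, by 1.75 and 2.27 on the log2 scale (limma adjusted p = 0.000198 and 2.58e-05). Of the 4 striatal projection neuron markers, 2 were called higher in the accumbens. Adora2a stood at 6902 and 6613 there and at 12524 and 11648 in the caudate putamen. Rgs9 stood at 5965 and 6124 against 13115 and 13031, and Tac1 at 17690 and 17045 against 22518 and 23885. The accumbens and caudate putamen were not tested against each other for Cnr1, and their arrays did not overlap. Beside the caudate result, 4 of the 4 striatal projection neuron markers and 2 of the 5 oligodendrocyte markers were also higher there. The oligodendrocyte markers summed to 118241 and 109332 in the caudate putamen, with none at 0, and their part in the Cnr1 result was not tested. The call in the caudate putamen was lost without either caudate array (limma adjusted p = 0.165 and 0.309), and that in the ventral tegmental area without its cocaine array (limma adjusted p = 0.442, log2 difference -0.73). The latter was also lost without its saline array or any one of the caudate or accumbens arrays (limma adjusted p from 0.0607 to 0.0862). With no filter on dim probe sets neither call held (limma adjusted p = 0.117 and 0.174), and with zeros raised to the floor or quantile normalization the one in the ventral tegmental area did not (limma adjusted p = 0.0690 and 0.0565).

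Htr2c, the serotonin receptor that couples to phospholipase C and is known for restraining dopamine neuron firing, had the next widest span between regions, 0.71 on the log2 scale against 2.19 for Cnr1. Its index on probe set M21410_s_at was 2546 with saline and 2521 with cocaine in the accumbens, 2109 and 1909 in the ventral tegmental area and 1897 and 1764 in the caudate putamen. It was 1817 and 1976 in the amygdala and 1582 and 1519 in the prefrontal cortex. The accumbens arrays lay above all others and the prefrontal arrays below all others, with the other 3 regions in between and the amygdala overlapping with both of its neighbours. In the prefrontal cortex Htr2c was 1.32-fold below the mean of the other 4 regions, a log2 difference of -0.40 ± 0.09 (SE, limma adjusted p = 0.0453). Htr2c was the 1 receptor of the 39 that passed the filter only through its highest region: its mean index was 1964 over all arrays and 1822 without the accumbens. In the nucleus accumbens it was 1.40-fold higher than that mean, a log2 difference of 0.48 ± 0.09 (SE), which did not pass the test (limma adjusted p = 0.101). The second Htr2c probe set, U35315_at, also had the accumbens highest, at 959 and 929, and the prefrontal cortex lowest on average, at 436 and 353, though the amygdala array with saline, at 418, lay between the latter. All of its values lay under the floor, so they are a description.

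Htr2c is abundant in choroid plexus, the tissue that makes cerebrospinal fluid and can adhere to a dissected region. Of 5 choroid plexus markers on the array, 4 were tested. Ttr and Enpp2 were lower in the prefrontal cortex, and Ttr was lower in the nucleus accumbens and higher in the amygdala and caudate putamen. The 5 summed to 16484 and 17031 for the accumbens and 15923 and 16467 for the prefrontal cortex, against 46966 to 60269 in the amygdala and 28109 to 55228 in the caudate putamen. No marker was at 0. The 5 summed to 22168 and 20856 in the ventral tegmental area, where Enpp2 was higher, at 6960 and 7144. Ttr stood at 4431 and 2310 there, and 4 of 5 oligodendrocyte markers were also higher in that region. Over all arrays Ttr ranged from 1692 to 41154, while Kl ranged from 3383 to 3885 and Igf2 from 6053 to 6980. The part of choroid plexus in the prefrontal result was not tested. The prefrontal call was also lost without any one of the arrays outside the amygdala (limma adjusted p from 0.0865 to 0.367), and with no filter, zeros raised to the floor, median scaling or quantile normalization (limma adjusted p from 0.0601 to 0.0848).

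**Figure D1:**
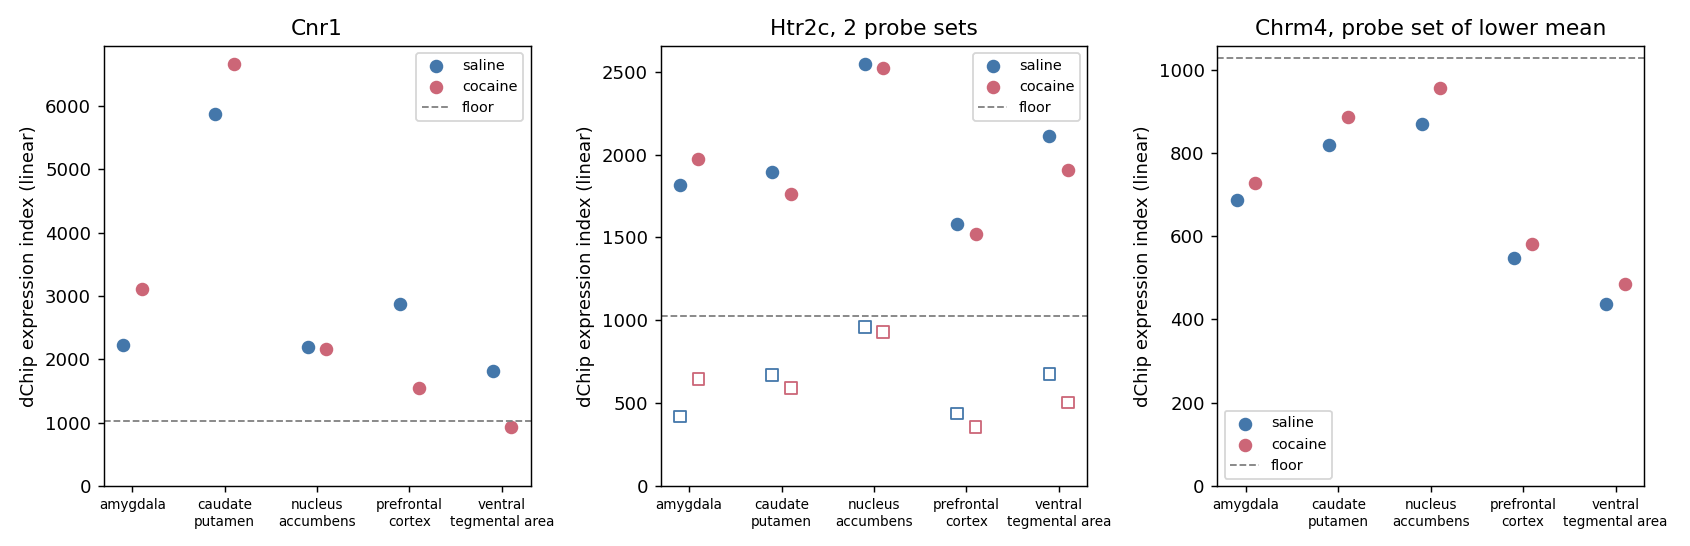
Expression index (linear scale) by region for Cnr1, Htr2c and the Chrm4 probe set of lower mean, with 1 point per array, saline in blue and cocaine in red. Open squares are the second Htr2c probe set and the dashed line is the floor of 1028. Cnr1 is highest on both caudate arrays and Htr2c on both accumbens arrays. All Chrm4 values shown lie under the floor.

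Chrm4, the muscarinic receptor of striatal projection neurons that inhibits adenylyl cyclase, had a regional order only on a probe set near background. It was looked at after its values were seen. That probe set, M16409_at, stood at 870 and 957 for the nucleus accumbens and 819 and 886 for the caudate putamen. It stood at 687 and 727 in the amygdala, 438 and 484 in the ventral tegmental area and 547 and 582 in the prefrontal cortex. The 4 striatal arrays were the 4 highest, but every value was under the floor and none was tested. The more abundant Chrm4 probe set, which stands for the gene, lay between 2573 and 2922 on the 9 arrays with a value and did not follow this order. Over the arrays with a value the correlation between both was -0.405, a description over points that share arrays.

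The upstream sequences of Htr2c and Chrm4 are shown because Htr2c passed the test in a region and Chrm4 had the striatal order just described. Htr2c was tested only because of its accumbens values, and the Chrm4 order was seen only on a probe set under the floor. The choice of these genes is thus no support for a regional pattern. The sequences are the 250 bases before the annotated start in RefSeq, build GRCr8. They run from 5′ to 3′ on the plus strand, which is the strand of both genes. For 44 of the 58 genes such a sequence was matched, and Cnr1 was not among them. Capitals mark matches, on either strand, to the CCAAT box, which reads ATTGG when found on the opposite strand, and to the GC box, spelled GGGCGG. The TATA box, spelled TATAAA, was also searched on both strands and matched neither sequence. The same held for TGACGTCA, the cyclic AMP response element.
Htr2c, chrX:115452940-115453189: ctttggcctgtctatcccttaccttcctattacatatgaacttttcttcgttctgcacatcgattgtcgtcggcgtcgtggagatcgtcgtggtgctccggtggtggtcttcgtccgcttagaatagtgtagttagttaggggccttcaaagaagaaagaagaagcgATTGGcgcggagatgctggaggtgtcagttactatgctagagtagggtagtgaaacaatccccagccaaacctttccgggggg
Chrm4, chr3:98348830-98349079: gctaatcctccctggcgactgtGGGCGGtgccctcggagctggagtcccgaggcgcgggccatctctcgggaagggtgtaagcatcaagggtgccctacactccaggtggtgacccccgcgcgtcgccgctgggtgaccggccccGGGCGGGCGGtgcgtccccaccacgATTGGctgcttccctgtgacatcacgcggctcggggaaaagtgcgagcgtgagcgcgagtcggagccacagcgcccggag

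Both sequences held an ATTGG match, starting 83 bases before the start of Htr2c and 80 bases before that of Chrm4. A CCAAT box was present in 34.0% of all 33469 windows of this length. Chrm4 also held 3 GC box matches, of which the ones at 105 and 101 bases overlap, and Htr2c held none, against 30.5% of all windows. The GC content was 70.4% for Chrm4 and 50.4% for Htr2c. TATAAA was present in 12.9% and TGACGTCA in 1.59% of all windows. These matches are letters in a window and not binding sites.

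The counts of receptors were read against those of all probe sets, with no test of the difference. The share of all 5232 tested probe sets that passed the limma test was 11.1% for the ventral tegmental area, 5.05% for the prefrontal cortex, 4.09% for the caudate putamen, 0.612% for the amygdala and 0.535% for the nucleus accumbens. In that order, 1, 1, 1, 0 and 0 of the 39 tested receptor genes passed. At an unadjusted p under 0.05, the receptor counts were 1, 1, 3, 1 and 1, against 21.1%, 16.8%, 15.7%, 8.83% and 5.24% of all tested probe sets. The regions share arrays in these tests, since each is part of the mean that the others are set against. The span between the highest and lowest region had a median of 0.19 on the log2 scale for the receptors and 0.27 for all tested probe sets. It exceeded 1 for Cnr1 alone, or 2.56% of the receptors, against 4.78% of all. In 12 of the 36 receptor genes with a value on every array, a region had both arrays above or both below all 8 others, or 33.3%, against 38.9% of all 4894 such probe sets. A 95% interval inside 1.5-fold in either direction was found for 35 to 37 of the 39 genes, depending on the region.

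**Figure D2:**
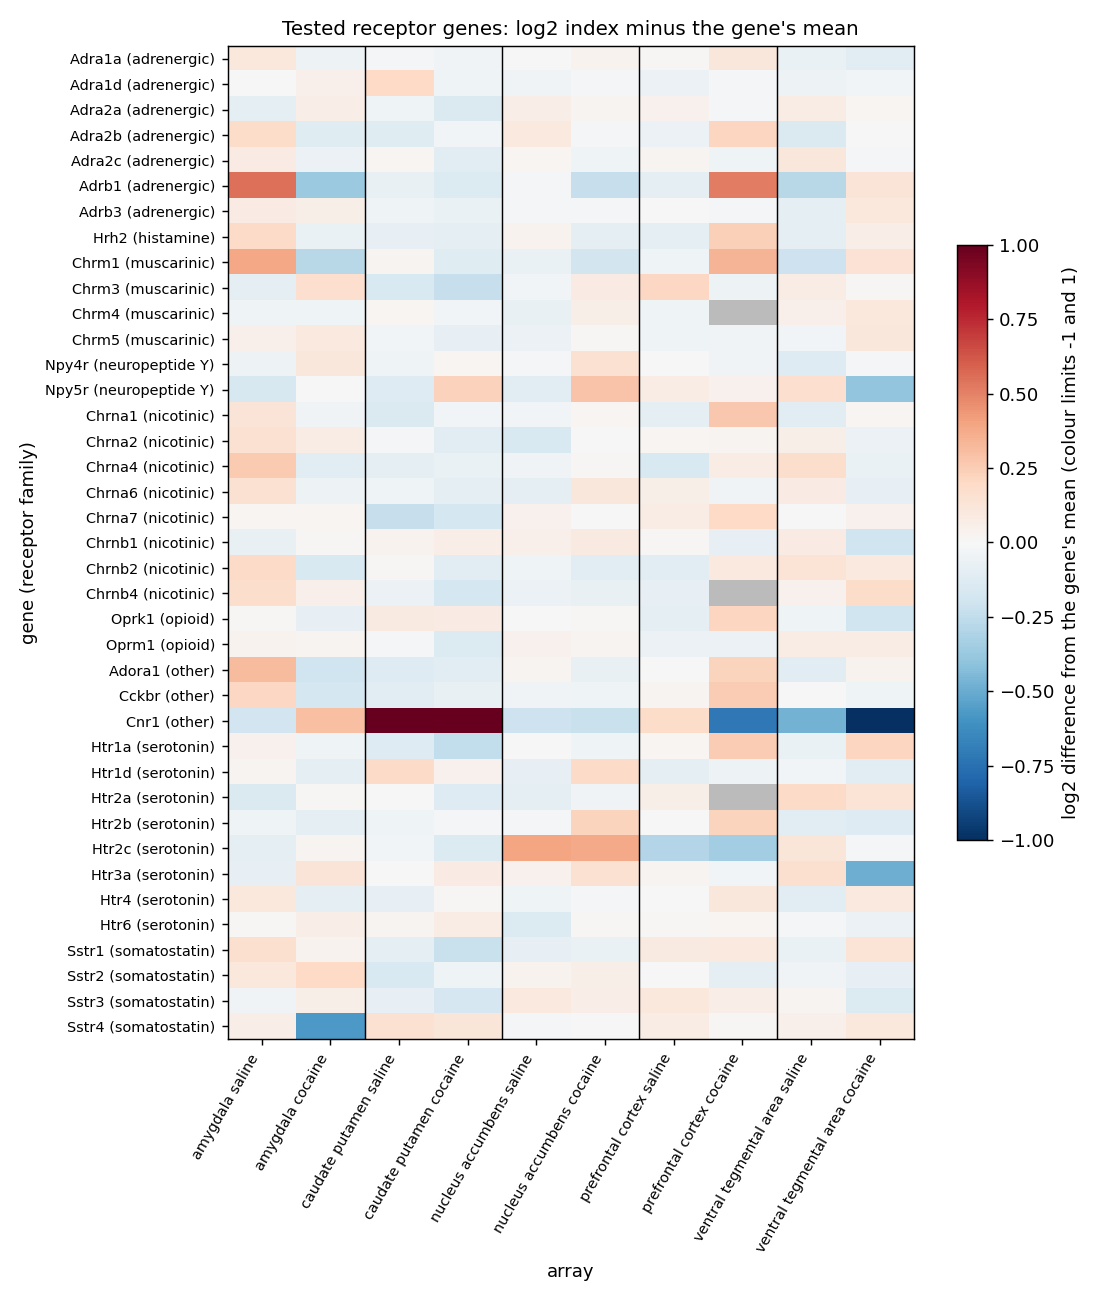
Log2 expression index of the 39 tested receptor genes on the 10 arrays, each relative to the gene's own mean. Red is above and blue below that mean, colours end at a difference of 1 in either direction, and grey marks the 3 exact zeros. The Cnr1 row spans the full scale and the Htr2c row is red in the nucleus accumbens and blue in the prefrontal cortex. Adrb1 and Chrm1 are red on the saline array of the amygdala and the cocaine array of the prefrontal cortex.

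Of 13 serotonin receptor genes, 8 were tested and Htr2c alone passed. Htr6, a stimulatory receptor of striatal neurons, ranged from 3060 to 3550 over the arrays with a median of 3394. Htr3a, the channel subunit, ranged from 2193 to 3431 with a median of 3146. Htr1a, the inhibitory autoreceptor of serotonin neurons, was lowest in the caudate putamen, where both arrays, at 2726 and 2512, lay below all others, but its log2 difference of -0.24 ± 0.10 (SE) did not pass (limma adjusted p = 0.318). None of the other tested serotonin receptors, Htr1d, Htr2a, Htr2b and Htr4, had a highest array more than 1.27-fold above its lowest.

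Muscarinic and nicotinic receptors, the targets of acetylcholine, held no gene that passed, with 4 of 5 and 8 of 12 tested. Chrm1, the excitatory muscarinic receptor of cortex and striatum, ranged from 4172 to 6600 with a median of 4871. Chrm3, which also couples to phospholipase C, ranged from 3714 to 5045 with a median of 4350, and both caudate arrays lay below all others. Chrnb2 and Chrna4, whose products form the most abundant nicotinic receptor of the brain, ranged from 5071 to 6427 and from 4016 to 5354. Chrnb4, a subunit known from the habenula, ranged from 6437 to 8287 on 9 arrays. For Chrm1, Chrnb2 and Chrna4 the ranges crossed the regions, with the saline array of the amygdala the highest. The Chrnb4 arrays of the amygdala, at 8220 and 7557, and ventral tegmental area, at 7506 and 8287, lay above the others with a value. Its second probe set, U42976_at, did not part the regions in this way, at 4164 and 3587 in the amygdala and 4303 with cocaine in the prefrontal cortex.

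Chrna7, the subunit of the calcium-permeable nicotinic receptor, was at 1806 and 1870 in the caudate putamen and at 2222 and 2427 in the prefrontal cortex. These were the lowest and the highest pairs, and the caudate difference of -0.25 ± 0.08 (SE) on the log2 scale did not pass (limma adjusted p = 0.165). Another tested Chrna7 probe set, S53987_at, ran the opposite way in these regions, at 2263 and 2252 in the caudate putamen and 1828 and 1653 in the prefrontal cortex, and did not pass there either (limma adjusted p = 0.533 and 0.304). Chrna6 encodes a subunit typical of dopamine neurons. Its index in the ventral tegmental area was 3689 and 3280, within the range of 3262 to 3867 over all arrays. The 95% interval of its log2 difference there ran from -0.22 to 0.22, while Th, which makes the dopamine precursor, was higher by 1.35 (limma adjusted p = 0.000133).

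Of the 8 adrenergic receptor genes, 7 were tested and none passed between regions. Adra2a, an inhibitory receptor on noradrenergic terminals, ranged from 8135 to 9459 with a median of 9132. Adra1d ranged from 7993 to 9584 with a median of 8187. Its second probe set, M60654_at, lay between 284 and 827, under the floor on all arrays. The prefrontal arrays were its highest, at 827 and 602, and its correlation with the first was -0.0755. Among the probe sets that stand for the genes of this family, that of the excitatory Adrb1 varied most, from 1942 to 3680. The extremes of Adrb1 were the cocaine and saline arrays of the same region, the amygdala. Its SE between regions, 0.25 on the log2 scale, was therefore wider than the median of 0.10 over the receptors in the same comparison.

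Opioid receptors had no regional difference that passed, with 2 of 4 genes tested. Oprm1, the receptor for endorphin, enkephalin and morphine, ranged from 5786 to 6710 with a median of 6493, and both arrays of the ventral tegmental area, at 6707 and 6710, were above all others. The log2 difference there was 0.09, with a 95% interval from -0.07 to 0.26 (limma adjusted p = 0.605). Each of the 4 Oprm1 probe sets had a different highest region. On S79903mRNA_at the ventral tegmental area stood at 2038 and 2177, against 2287 on the saline array of the amygdala. Oprk1, the dynorphin receptor, ranged from 2647 to 3531 with a median of 3044. By contrast Penk, the enkephalin precursor, stood at 28595 and 27745 in the caudate putamen and at 2462 and 2457 in the prefrontal cortex.

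Among peptide and other receptors, none passed apart from Cnr1. Sstr4 and Sstr3, inhibitory somatostatin receptors, ranged from 2213 to 3659 and from 2308 to 2783. Without the saline array of the amygdala, Sstr4 was called lower in that region, where the saline array read 3450 and the cocaine array 2213. Sstr2 was highest on both amygdala arrays, at 2337 and 2500, with a log2 difference of 0.19 ± 0.09 (SE) that did not pass (limma adjusted p = 0.582). Npy4r and Npy5r, receptors of the neuropeptide Y family, ranged from 3138 to 3796 and from 1575 to 2524. Hrh2, the stimulatory histamine receptor, ranged from 1840 to 2330. Cckbr, the brain receptor for cholecystokinin, ranged from 3158 to 4259, and Adora1, the inhibitory adenosine receptor, from 2396 to 3426.

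The 19 genes near background were Htr1b, Htr1f, Htr5a, Htr5b, Htr7, Chrm2, Chrna3, Chrna5, Chrna9, Chrnb3, Adra1b, Oprd1, Oprl1, Hrh1, Npy1r, Sstr5 and all 3 tachykinin receptors, Tacr1, Tacr2 and Tacr3. Their values lay between 185 and 2475. Htr1f, Htr7, Npy1r and Tacr1 were under the floor on all 10 arrays, 11 genes were above it on all 10, and Chrna9, Sstr5, Htr5a and Chrnb3 were above it on 2, 3, 9 and 9 arrays. Nearest to the filter on either side were Chrna2, with a mean index of 1897, and Tacr3, with a mean index of 1733. A low index on these arrays does not show that a receptor is absent, and no difference between regions was tested for these genes. Chrnb3, which partners Chrna6 in dopamine neurons, stood at 1096 and 1178 in the ventral tegmental area and reached 1572 on the cocaine array of the prefrontal cortex.

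**Figure D3:**
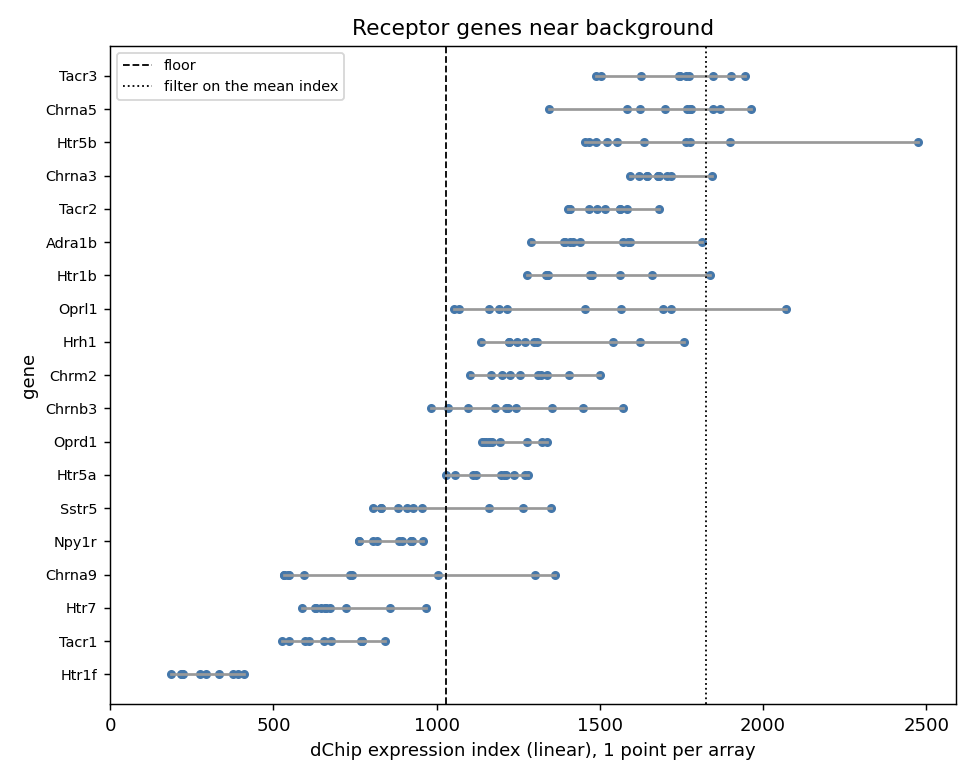
Expression index (linear scale) of the 19 receptor genes whose mean index lay in the lower 40% of probe sets, with 1 point per array and a line from the lowest to the highest. The dashed line is the floor of 1028 and the dotted line the filter at 1824. Htr1f, Tacr1, Htr7 and Npy1r lie wholly to the left of the floor, while Htr5b reaches 2475 and Oprl1 2069 on the cocaine array of the prefrontal cortex.

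Probe sets of the same gene often differed in their profile. Of 17 genes with several probe sets, 4 had the same highest region on all of them, Cckbr, Chrm3, Chrnb4 and Htr2c. The lowest correlation between probe sets of a gene was below 0 for 11 genes and above 0.5 for 5, over all 10 arrays or, where a probe set of Chrm4, Chrnb4, Htr2a or Htr3a had an exact zero, over the other 9. It was 0.927 for Htr2c, 0.806 for Chrm1 and 0.681 for Sstr1, but -0.624 for the 3 Chrna7 probe sets, -0.601 for the 4 Oprm1 probe sets and -0.877 for the 3 Htr3a probe sets. These correlations share arrays and are descriptions. No tested probe set that was not chosen to represent its gene passed in any region.

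Cocaine was then set against saline across the 5 regions. In limma, 0 of the 39 tested receptor genes passed, against 0% of all tested probe sets, and 0 of the receptors and 69 of the 5232 probe sets had an unadjusted p under 0.05. The log2 changes of the receptors lay between -0.21 for Cnr1 and 0.10 for Chrna1, with a median SE of 0.08. The 95% interval was inside 1.5-fold in either direction for 38 of the 39, and for Cnr1 it ran from -0.69 to 0.26.

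Adra2c alone moved the same way in all 5 regions, or 2.78% of the 36 receptors with a value on every array, against 3.09% of all 4894 such probe sets. It encodes an inhibitory adrenergic receptor of striatal neurons and noradrenergic terminals. From saline to cocaine, its index went from 2159 to 1962 for the amygdala, from 2071 to 1979 for the accumbens and from 2067 to 1896 for the caudate. It went from 2209 to 2019 for the ventral tegmental area and from 2080 to 1980 for the prefrontal cortex. The arrays of both treatments overlapped across regions, and the log2 change of -0.11 ± 0.06 (SE) did not pass (limma adjusted p = 1, 95% interval -0.25 to 0.04).

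Within a region, 1 array with cocaine was set against 1 with saline, so these differences have no replicate check. A fold of at least 1.5 was reached by 8.89% of probe sets for the amygdala, 4.92% for the prefrontal cortex, 1.65% for the ventral tegmental area, 0.23% for the nucleus accumbens and 0.153% for the caudate putamen. In that order it was reached by 3, 2, 2, 0 and 0 receptor genes. The receptor ratios of the accumbens and caudate putamen lay between -0.22 and 0.40 and between -0.25 and 0.36 on the log2 scale.

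Adrb1 was the only receptor past 1.5-fold in opposite directions. Its amygdala index was 3680 with saline and 1942 with cocaine, 1.89-fold lower, and 2341 and 3575 in the prefrontal cortex, 1.53-fold higher. It was 2486 and 2130 in the accumbens, 2381 and 2278 in the caudate and 2073 and 2740 in the ventral tegmental area. Chrm1 stood at 6600 and 4172 in the amygdala, 1.58-fold lower, and at 4902 and 6408 in the prefrontal cortex. Its other probe set, M16406cds_s_at, went the same way by less. It stood at 5256 and 4705 in the amygdala, a log2 ratio of -0.16, and at 4212 and 5359 in the prefrontal cortex. Sstr4 stood at 3450 and 2213 in the amygdala, 1.56-fold lower, and between 3251 and 3659 on the other 8 arrays, so 1 array set its ratio.

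Cnr1 was 1.87-fold lower with cocaine in prefrontal tissue, at 2875 and 1541, and lower in the ventral tegmental area, at 1820 and 927. The latter is 1.77-fold with the cocaine value raised to the floor of 1028, and so understates the measured difference. It was higher with cocaine in the amygdala and caudate putamen, at 3112 against 2219 and 6665 against 5880. Htr3a was 1.56-fold lower in the ventral tegmental area, at 3431 and 2193, and its other 9 values lay at or above 2904. As with Sstr4, a single low array made that ratio. The other Htr3a probe sets differed from each other there, U01227_s_at going from 2689 with saline to 2239 with cocaine and D49395_s_at from 1922 to 2472.

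Receptor ratios in the amygdala and prefrontal cortex were then set side by side. Of 36 receptors with all values, 29 had ratios of opposite sign in the amygdala and prefrontal cortex, or 80.6%, against 73.0% of all 4999 probe sets. Of the 29, 19 were lower with cocaine in the amygdala and higher in the prefrontal cortex, and 10 were the reverse. The correlation across genes was -0.734 for the receptors and -0.625 for all probe sets, and genes are not independent replicates. The opposite sign was thus also the more frequent one over all probe sets. The cocaine array of the prefrontal cortex and the saline array of the amygdala were the highest of the 10 for 10 and 8 of the 36 receptors, against 21.2% and 14.7% of all probe sets. The saline and cocaine arrays correlated at 0.940 in the amygdala and 0.952 in the prefrontal cortex, and at 0.977 to 0.992 in the other regions. The part of these array differences in the receptor ratios was not tested.

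**Figure D4:**
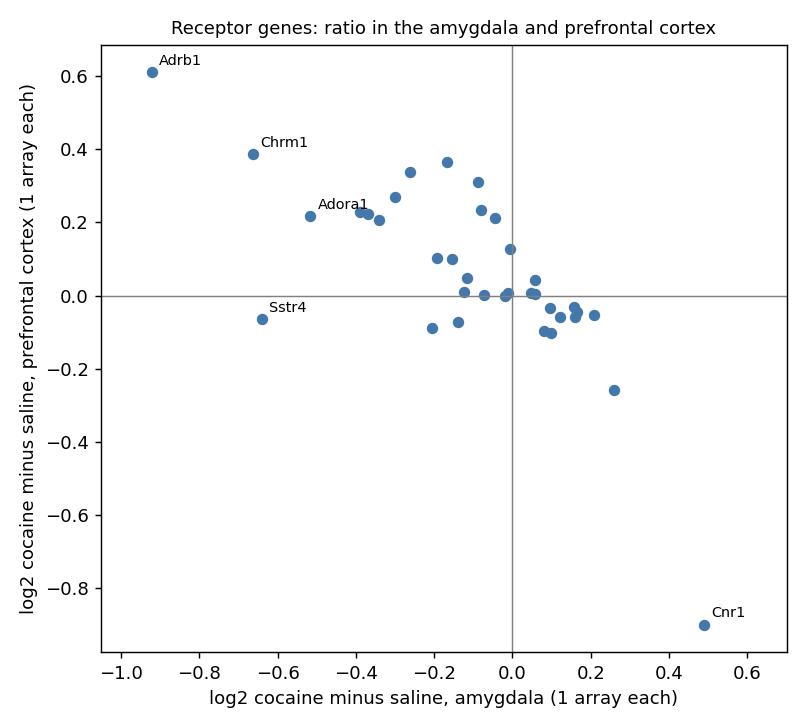
Log2 ratio of cocaine over saline in the amygdala (x axis) and prefrontal cortex (y axis), 1 array each, with 1 point for each of the 36 receptor genes with a value on every array. Most points lie in the upper left and lower right areas, 29 of 36 in all. Adrb1 lies at -0.92 and 0.61 and Cnr1 at 0.49 and -0.90.

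Genes for the ligands and transducers of these receptors were taken from 3 lists. Of 14 peptide precursor genes on the array, 12 were tested. In limma, 1 was higher in the amygdala, 2 were higher and 1 lower for the caudate, 2 higher for the accumbens, 1 higher and 2 lower for the prefrontal cortex, and 3 lower for the ventral tegmental area. Tac1, the substance P precursor, stood at 22518 and 23885 in the caudate putamen, 17690 and 17045 in the accumbens, and 1657 and 1155 in the prefrontal cortex. Its log2 difference was 2.25 ± 0.18 (SE, limma adjusted p = 0.000649) in the caudate putamen and -2.83 ± 0.18 (SE, limma adjusted p = 0.000219) in the prefrontal cortex. All 3 receptors for the tachykinins, the family of substance P, were near background.

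Penk was higher in the amygdala, caudate putamen and accumbens, by 0.80, 1.75 and 1.23 on the log2 scale, and lower in the prefrontal cortex and ventral tegmental area, by -2.65 and -1.13. Cck, the cholecystokinin precursor, was highest in the prefrontal cortex, at 28113 and 27640, followed by the amygdala, at 20542 and 18366. It stood at 5707 and 7238 in the caudate putamen and 4161 and 8504 in the ventral tegmental area, and its receptor Cckbr passed in no region. Npy, the neuropeptide Y precursor, was lower in the ventral tegmental area, at 3256 and 2244, by -0.92 on the log2 scale (limma adjusted p = 0.00410).

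Of 24 genes for G proteins, receptor kinases and arrestins, 20 were tested, and 0, 2, 2, 0 and 1 were higher and 0, 1, 0, 3 and 2 lower, in the order amygdala, caudate, accumbens, prefrontal cortex and tegmental area. Gnal, the striatal G protein subunit that activates adenylyl cyclase, stood at 5359 and 4737 in the caudate putamen, 5826 and 5016 in the accumbens, and 885 and 913 in the prefrontal cortex. Its log2 difference was 1.25 ± 0.10 (SE, limma adjusted p = 0.000649) in the caudate putamen and 1.38 ± 0.10 (SE, limma adjusted p = 0.00141) in the accumbens. Gng7, its gamma partner in striatal neurons, was higher in both, by 1.07 and 0.70 on the log2 scale. Gnas, the related subunit used elsewhere in the brain, was lower in the caudate putamen, by -0.94 (limma adjusted p = 0.00172). Its caudate arrays read 20590 with saline and 21571 with cocaine. Both accumbens arrays, at 37955 and 40159, fell inside the range of 36842 to 45591 seen outside the striatum. Gnal was thus high in the accumbens without a low Gnas.

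Of 18 genes that make, move or break down the small ligands, 12 were tested and none passed in the amygdala, caudate putamen or accumbens. In the ventral tegmental area Th, Maoa, which oxidises monoamines, and Ache, which breaks down acetylcholine, were higher, and Mgll, which breaks down the cannabinoid ligand of Cnr1, was lower. Ache stood at 4037 and 3926 there and at 1984 to 2939 elsewhere, a log2 difference of 0.77 ± 0.08 (SE, limma adjusted p = 0.000982). Mgll stood at 2697 and 2918 there and at 3555 to 4574 elsewhere, a log2 difference of -0.47 ± 0.08 (SE, limma adjusted p = 0.00886). In the prefrontal cortex Mgll was higher, by 0.35, and Ache lower, by -0.42. Beside the results in the ventral tegmental area, 4 of 5 oligodendrocyte markers were higher there, summing to 99690 and 115159 with none at 0. Of 7 hypothalamic peptide markers on the array, 6 were tested and 1 was higher in the ventral tegmental area. It was Hcrt, a peptide of the lateral hypothalamus, at 23627 and 6808. Pmch, another, was listed at 0 on both arrays of that region, and Oxt and Gal at 0 on its saline array. The part of either list of markers in these results was not tested. No gene of the 3 lists passed between cocaine and saline.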

How the data were processed

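Total RNA of 5 rat brain regions was measured on 10 arrays, 1 with saline and 1 with cocaine per region. The deposited values are array intensities, given as the expression index of dChip per the labels. The labels do not state the dChip version, model or scaling, and 1 array per group limits the precision. Of 8799 probe sets, 59 controls were left out. Gene names came from the platform annotation, in which 7006 probe sets had 1 symbol, 308 several and 1426 none.

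Exact zeros were treated as having no value, lower values were raised to the floor, and limma 3.58.1 in R 4.3.3 was fitted to log2 index with terms for region and treatment (lmFit, eBayes with trend, 4 residual degrees of freedom). P-values were adjusted by Benjamini-Hochberg over 5232 probe sets. The fit was tested on simulated data. The alternatives were other settings for zeros, floor, filter and scaling, all probe sets of a gene, and leaving out each array.

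The receptor genes and lists were chosen with earlier results of these data known. The text names receptors that passed, up to 2 per family by mean index, those of 1 sign in all regions, those past 1.5-fold within a region, and up to 4 genes per region from each other list. Others, such as Chrna6, Chrna7, Htr1a and Sstr2, were named after their values were seen.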

Additional observations from a re-analysis of the deposited data

Results flagged for a closer look

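For Adrb1, the cocaine array lay below the saline array in the amygdala (log2 ratio -0.92) and above it in the prefrontal cortex (log2 ratio 0.61), with 1 array per treatment in each region. The difference between the regions was not tested.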

How the results depend on the processing

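No Cnr1 or Htr2c value changed direction under any alternative run: of 47 alternative values for single genes, 23 kept their side of the threshold, 24 lost it and 0 reversed. In the prefrontal cortex the number of receptors that passed was 0 in place of 1 with zeros raised to the floor, with no filter, with the stricter filter (upper 40%, under which Htr2c was not tested), with median scaling and with quantile normalization. In the ventral tegmental area it was 0 in place of 1 with zeros raised to the floor, no filter and quantile normalization, and in the caudate putamen 0 in place of 1 with no filter. Receptors past 1.5-fold in the prefrontal cortex numbered 5 in place of 2 with zeros raised to the floor, 4 with no filter, and 1 with the stricter filter, median scaling or quantile normalization. When each array was left out in turn, the number that passed ran from 0 to 1 in each of the 5 regions and was 0 throughout for cocaine against saline. The single receptors added were Sstr4 in the amygdala and Htr2c in the accumbens, each without 1 amygdala array. A lone array left in a region was assumed to vary like the others. The count over all probe sets then ran from 0 to 381 in the amygdala, 22 to 502 in the caudate putamen, 3 to 71 in the accumbens, 54 to 644 in the prefrontal cortex and 118 to 951 in the ventral tegmental area. The cause of these changes was not tested. No pairing by animal was possible because the labels carry no replicate numbers. The saline and cocaine arrays were paired by region, since region was a term of the fit.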
